A study of Saccharomyces cerevisiae with 8 samples.

Results

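The 5S ribosomal RNA (rRNA) of the yeast *Saccharomyces cerevisiae* is described here nucleotide by nucleotide. Its 121 nucleotides were taken as every row that names 5S in the deposited table of 5475 rRNA nucleotides, and 60 of them are adenosines or cytidines (30 each). Purified 80S ribosomes were probed with dimethyl sulfate (DMS) in vitro to find where drugs bind. The 8 libraries, 1 per condition, had DMS with agelastatin A (AglA, a sponge alkaloid) at 0.5 or 1.0 mM, DMS with cycloheximide (CHX, an inhibitor of translation elongation) at 10, 50 or 1000 µM, DMS with the solvent dimethyl sulfoxide (DMSO), DMS with no addition, or no DMS. DMS was used at 90 mM for 8 min. The labels give neither the strain nor the solvent of either drug. With 1 library per condition, no difference between libraries has a replicate check and no p-value is given, and because the files hold no read depth, no counting interval can be given either.

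Adenosine and cytidine take up a methyl group from DMS on their base-pairing edge, provided that no base pair, protein or drug shields it, and reverse transcription then places a wrong base in the cDNA opposite it. The fraction of a nucleotide's reads that carry such a mismatch is its mutation rate. The 5S rRNA is the smallest rRNA of the large subunit. It folds into 3 arms that meet at loop A: helix I joins the ends, helices II and III carry loops B and C, and helices V and IV carry loops E and D. In yeast it sits in the central protuberance, at the top of the large subunit, bound by the ribosomal proteins Rpl5 and Rpl11.

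The sequence of the table is shown because the results turn on which few bases of it are reactive. It is written in DNA letters as deposited, 5′ to 3′, and capitals mark the 8 adenosines and cytidines whose mutation rate, averaged over the 7 DMS libraries, is 0.5% or more, called open below.
5S rRNA: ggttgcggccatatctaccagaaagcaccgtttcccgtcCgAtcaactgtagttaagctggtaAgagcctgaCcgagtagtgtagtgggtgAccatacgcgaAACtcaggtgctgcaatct
The length equals that of RDN5-1, the first copy of the 5S gene in the annotation, at chrXII:459676-459796 on the plus strand (build R64, which sacCer3 also denotes). The annotation holds 6 copies of RDN5 on chromosome XII, 2 of this length and 4 annotated as 119 bases. The table was matched to RDN5-1 by length alone, without the genome sequence. The rates do not separate the copies, and the genome positions below count along RDN5-1. Positions assigned to helices and loops were written down from memory of the eukaryotic 5S fold and may be off by 1 or 2 nucleotides.

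Most adenosines and cytidines of 5S rRNA gave little signal with DMS. Only 8 of the 60 were open, or 13.3%, where 20.3% of the 2529 adenosines and cytidines of all rRNAs were. Another 5 had a mean rate of 0.2% to 0.5% and 47 were below 0.2%. Of the 30 adenosines 5 were open (16.7%), and of the 30 cytidines 3 were (10%). The other rRNAs had larger shares of open adenosines, with 9 of 41 in 5.8S, 216 of 899 in 25S (24.0%) and 151 of 483 in 18S (31.3%). The cytidine share was 16.7% in 5.8S (6 of 36), 13.8% in 18S (48 of 348) and 11.5% in 25S (76 of 662). These shares rest on few nucleotides in 5S, neighbouring nucleotides are not independent, and the differences were not tested.

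**Figure D1:**
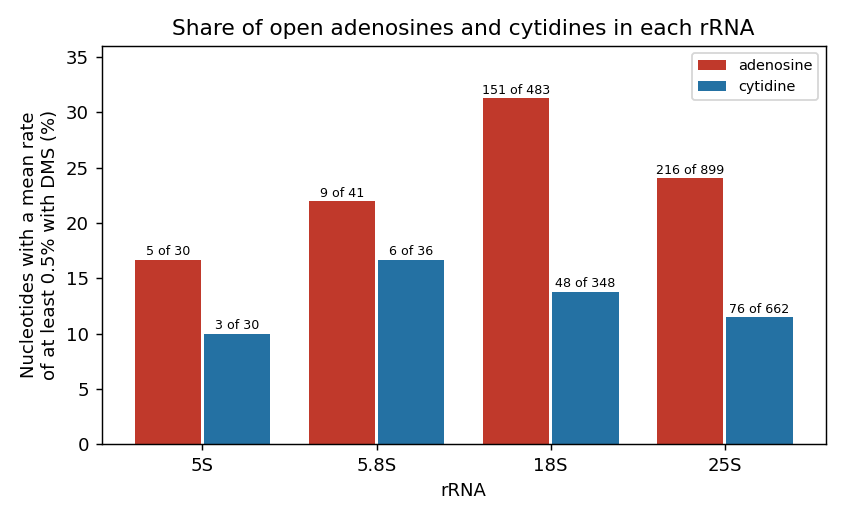
Share of adenosines and of cytidines (%) whose mutation rate averaged 0.5% or more in the 7 DMS libraries, for each rRNA, with counts above the bars. The 5S bars, 16.7% and 10%, are the lowest of their base.

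At the level of the typical nucleotide, adenosines were further above their level without DMS than cytidines were. The median rate of the 30 adenosines was 0.106% with DMS and DMSO and 0.103% with DMS and no addition, against 0.0337% without DMS. The median of the 30 cytidines was 0.0814% and 0.0889% in the same DMS libraries, against 0.0670% without DMS. Over all rRNAs the median adenosine had 0.188% with DMS and no addition, and the median cytidine 0.0939%. Thus the typical 5S adenosine lay below the typical rRNA adenosine, while the cytidines were nearly level.

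By a 2-fold rule, 13 of the 60 adenosines and cytidines (21.7%) were higher with DMS, 10 of them adenosines. The rule asked for a log2 ratio of at least 1 to the library without DMS, with 0.1 percentage points added to each rate, and had to hold in each of the 2 DMS libraries without drug. Of all adenosines and cytidines in the table, 33.8% met it. The 13 were the 8 open nucleotides, A72, A95 and A102 among the weaker ones, and A51 and A79 among those below 0.2%. The size of this count depends on the constant, which hides changes at low rates: 20 of the 60 met the rule with 0.01 percentage points added and 3 with 1 percentage point.

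**Figure D2:**
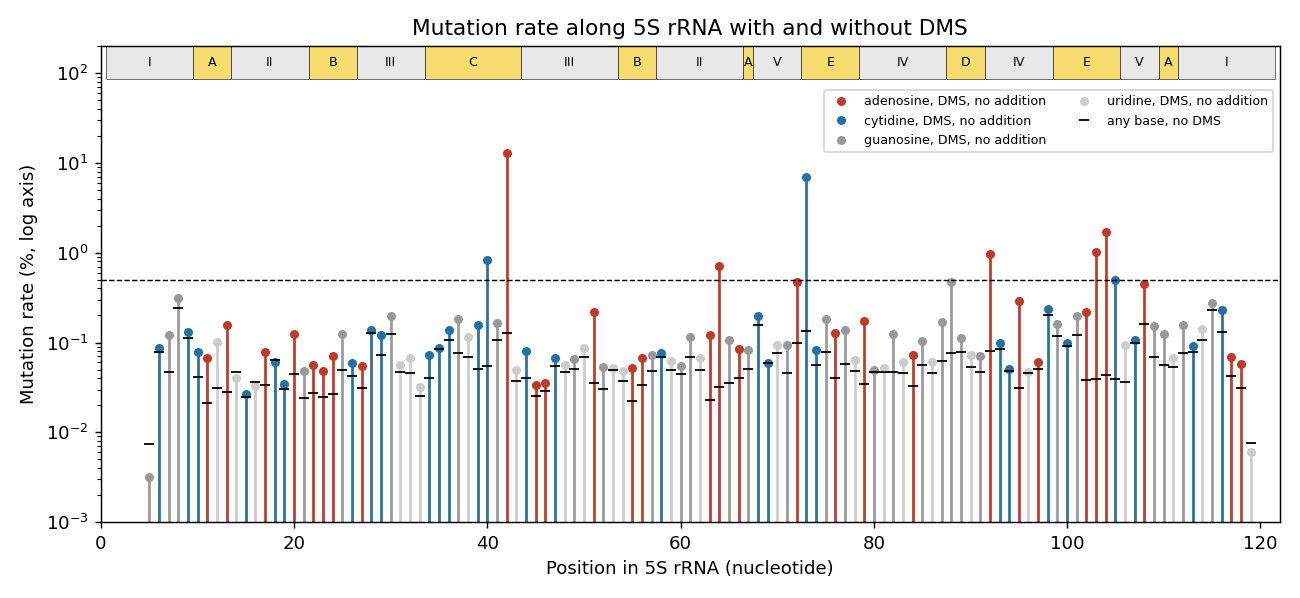
Mutation rate (%, log axis) at each position of 5S rRNA with DMS and no addition (circles on stems, coloured by base) and without DMS (black dashes), with helices (grey) and loops (yellow) along the top and a dashed line at 0.5%. Rates of 0 are not drawn. Positions 42 and 73 stand above all others at 12.9% and 7.0%, and most nucleotides lie near their level without DMS.

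A42 in loop C, the loop that closes the arm of helices II and III, was the most reactive nucleotide of 5S rRNA. It is at position 459717 of chromosome XII in RDN5-1. The AglA libraries (0.5 and 1.0 mM) gave rates of 13.9% and 13.8% and the CHX libraries (10, 50 and 1000 µM) 9.80%, 11.5% and 10.4%, against 14.2% with DMSO and 12.9% with no addition. Without DMS it had 0.129%, so the DMSO library was 110 times and the no-addition library 99.6 times as high. All 7 DMS libraries were far above the one without DMS, and the 3 CHX libraries were the lowest of the 7. The CHX libraries were also lowest by the median rate over all 514 open adenosines and cytidines of the table. Those medians were 1.31%, 1.52% and 1.44% with CHX, against 1.66% with DMSO and 1.74% with no addition. Among the 1453 adenosines of the table, the mean rate of A42 ranked 20th from the top.

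Around A42 reactivity dropped within 1 or 2 nucleotides.
Loop C: cccgtcCgAt
This stretch, positions 34 to 43, holds 1 adenosine and 5 cytidines, with the open C40 and A42 in capitals. C40 had 0.709% and 0.779% with AglA and 0.583%, 0.674% and 0.644% with CHX, against 0.802% with DMSO and 0.822% with no addition, and 0.0546% without DMS. The adjacent C39 had 0.156% with no addition, against 0.0502% without DMS. The other 3 cytidines of the loop were also below 0.2%. Loop C thus mixed the most reactive base of the molecule with 4 closed cytidines.

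C73, where helix V meets loop E, was the second reactive nucleotide. It is at position 459748 in RDN5-1. The AglA libraries gave 6.61% and 7.23%, from the lower to the higher dose, and the CHX libraries 5.89%, 6.01% and 5.63%, against 7.46% with DMSO and 7.0% with no addition, and 0.136% without DMS. Here too the CHX libraries were the lowest of the DMS libraries, as they were by their medians over all open nucleotides of the table. C73 ranked 17th of the 1076 cytidines of the table by mean rate. Its neighbours on either side were far lower: A72 had 0.473% and C74 0.0819% with DMS and no addition, against 0.0991% and 0.0562% without DMS.

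A42 and C73 carried most of the DMS signal of the molecule. Their rates made up 63.6% of the summed rate of the 60 adenosines and cytidines in each AglA library, 61.1%, 62.6% and 60.4% with 10, 50 and 1000 µM CHX, 65.6% with DMSO and 63% with no addition. Without DMS they made up 7.34%. All 8 open nucleotides together held 81.2% of the sum with no addition and 83.3% with DMSO.

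Opposite C73, on the other strand of loop E, 3 consecutive nucleotides were open.
Loop E, 5′ strand: Ccgagt
Loop E, 3′ strand: gcgaAAC
Loop E is the internal loop between helices V and IV, and in eukaryotes it is known for a backbone turn held by non-canonical pairs. The strands are positions 73 to 78 and 99 to 105, and capitals again mark open nucleotides. A104 was the highest of the 3′ strand, with 1.77% and 1.89% with AglA and 1.39%, 1.52% and 1.47% with CHX, against 1.84% with DMSO and 1.71% with no addition, and 0.0431% without DMS. A103 had 0.929% and 0.887% with AglA and 0.746%, 0.840% and 0.783% with CHX, against 0.915% with DMSO and 1.01% with no addition, and 0.0397% without DMS. The next base, C105, had 0.627% and 0.638% with AglA and 0.476%, 0.457% and 0.453% with CHX, against 0.599% with DMSO and 0.496% with no addition, and 0.0394% without DMS.

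Within loop E the bases ran from high to closed. Of its 8 adenosines and cytidines 4 were open and A102 was weaker, at 0.221% with DMS and no addition against 0.0380% without DMS. A76 was below 0.2%, with 0.128% against 0.0401%. C74 and C100 were also closed, and C100, with 0.0982%, was close to its 0.0913% without DMS. Loop E had more open nucleotides than any other element of the list, ahead of loop C with 2 of 6. C73 and C105 are its outermost positions, next to helix V. The order thus depends on boundaries that may be off by 1 or 2 nucleotides.

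By the list used, single open adenosines stood in helices II and IV, the latter (A92) at the edge of its helix. A64 of helix II had 0.721% and 0.677% with AglA and 0.540%, 0.605% and 0.561% with CHX, against 0.753% with DMSO and 0.707% with no addition, and 0.0320% without DMS. The adjacent A63 had 0.120% with no addition and 0.0231% without DMS, below A64 in both. The strands of helix II in the list, positions 14 to 21 and 58 to 66, are unequal in length. Not every base of the longer strand can thus have a partner in the other, and which ones lack it was not tested.

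A92 borders loop D at the tip of helix IV, and its rates were the most even of the 8. It had 0.860% and 0.840% with AglA and 0.865%, 0.898% and 0.837% with CHX, against 0.936% with DMSO and 0.971% with no addition, and 0.0796% without DMS. The spread of the 7 DMS libraries was 0.0507 percentage points (standard deviation) around a mean of 0.887%. For A42 it was 1.79 around 12.3%.

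Not every loop was reactive. Loop B, the internal loop between helices II and III, holds 5 adenosines (A22, A23, A24, A55 and A56) and 1 cytidine, and all 6 were closed. With DMS and no addition they had 0.0480% (A23) to 0.0709% (A24), against 0.0226% (A55) to 0.0427% (C26) without DMS. The 3 adenosines and cytidines of loop A, the junction of the arms, were closed as well, the highest being A13 at 0.156%. Of the 23 adenosines and cytidines in all loops 6 were open, against 2 of 37 in the helices. The median rate of the 2 sets was close, at 0.0982% in loops and 0.0873% in helices with DMS and no addition, since most loop bases were closed. Of the open nucleotides, C73 and C105 lie at the edges of loop E and A92 at that of helix IV. The counts in loops and helices thus depend on boundaries that may be off by 1 or 2 nucleotides.

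A fold was also predicted from the sequence alone. In the minimum free energy structure of RNAfold 86 nucleotides were paired and 35 unpaired. Of the adenosines and cytidines, 3 of 21 unpaired and 5 of 39 paired ones were open. A42, A64, C73, A104 and C105 were drawn as paired there, among them the 3 most reactive bases. C40, A92 and A103 were drawn as unpaired, although the list puts A92 in helix IV. RNAfold takes no account of proteins or of the rest of the ribosome.

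Just under the bound of 0.5% lay A72 (mean 0.477%), A108 (0.450%) and A95 (0.311%), and just above it C105 (0.535%), A64 (0.652%) and C40 (0.716%). A72 and A108 are in helix V and A95 in helix IV. A95 had 0.291% with DMS and no addition against 0.0312% without DMS. A108 had 0.453% against 0.163%, and it missed the 2-fold rule by the DMSO library alone, with a log2 ratio of 0.99. C98 of helix IV, also between 0.2% and 0.5% on average, had 0.237% with no addition and 0.202% without DMS, so most of its rate was present without DMS.

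Without DMS none of the 121 nucleotides of 5S rRNA reached 0.5%, and 29 of the 5475 in the whole table did. With so few in the whole table, a count of 0 in 5S is near the background. The highest in 5S were G8 with 0.245%, G115 with 0.233% and C98 with 0.202%. G8 had 0.234% with DMSO and 0.310% with no addition, and G115 had 0.211% and 0.278%, so both were slightly below their rate without DMS in one library and above it in the other. Rates were 0 in every library at 5 nucleotides, the first 3 and the last 2 of the molecule. C120 is the one adenosine or cytidine among them, and it is counted with the closed ones.

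Guanosines and uridines are not the usual targets read out as mismatches after DMS. Of the 61 in 5S rRNA, 1 was at least 2-fold higher with DMS, where 6.04% of the guanosines and uridines of the table were. This was G88 in loop D. It had 0.493% and 0.542% with AglA and 0.453%, 0.500% and 0.483% with CHX, against 0.462% with DMSO and 0.469% with no addition, and 0.0760% without DMS. Its mean of 0.486% made it the 9th nucleotide of the molecule, above A72. No guanosine or uridine of 5S reached 0.5% on average.

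**Figure D3:**
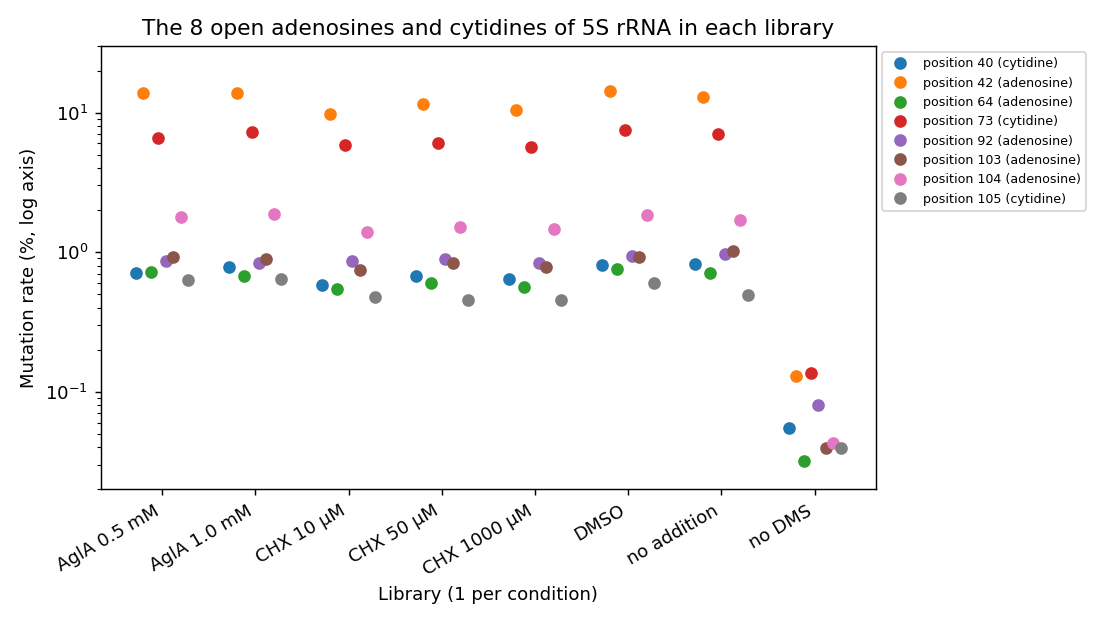
Mutation rate (%, log axis) of the 8 open adenosines and cytidines of 5S rRNA in each of the 8 libraries, 1 point per library. In the 7 DMS libraries each nucleotide stays within a narrow band, from 9.80% to 14.2% at position 42, and all 8 fall below 0.2% without DMS.

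The drug comparisons used the 514 adenosines and cytidines of all rRNAs with a mean rate of at least 0.5%, of which 8 are in 5S. Rates were compared as log2 after adding 0.1 percentage points, relative to each library's median over the 514. A drug library was said to change a nucleotide only if the ratio to DMSO and the ratio to no addition both reached 2-fold in one direction (log2 of 1 or more, or of -1 or less). The added constant understates changes at low rates.

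No nucleotide of 5S rRNA was called in any drug library. In each of the 5 drug libraries the rule called 0 of the 8, and 0.195% of the 514 tested nucleotides (1 each, none of them in 5S). With 8 nucleotides tested, a count of 0 is near that background. At a bound of 1.5-fold the count in 5S was also 0 in each library, and the share of all tested nucleotides was 0.195%, or 0.389% with 50 µM CHX. The largest log2 ratio of a 5S nucleotide was 0.42, at C105 with 1.0 mM AglA against no addition.

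**Figure D4:**
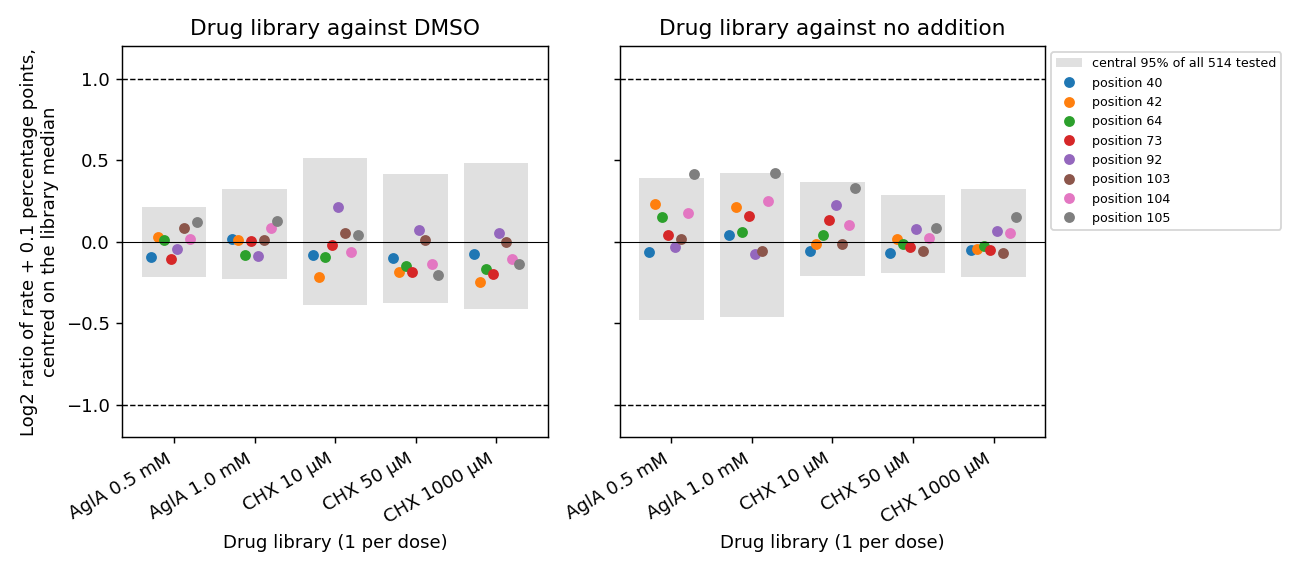
Log2 ratio of each drug library to the DMSO library (left) and to the no-addition library (right) at the 8 open nucleotides of 5S rRNA, after centring, with the central 95% of all 514 tested nucleotides in grey and dashed lines at the 2-fold bound. All points lie between -0.25 and 0.42, and position 105 is the highest in each AglA library. Against no addition (right) it is also the highest in each CHX library.

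With AglA the 8 nucleotides stayed close to the DMSO library. At 0.5 mM their log2 ratios to DMSO were between -0.11 (C73) and 0.12 (C105), with a median of 0.013. At 1.0 mM they were between -0.09 (A92) and 0.13 (C105), with a median of 0.0089. The medians over all 514 nucleotides were -0.00065 and -0.0022. Against no addition the medians in 5S were 0.10 and 0.11, against 0.05 over all tested nucleotides at both doses.

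Nucleotide by nucleotide, the direction with AglA was mixed. After centring, 1 of the 8 (A92) was lower than both control libraries at both doses and 3 were higher (A42, A104 and C105), where 18.5% and 26.5% of all tested nucleotides were. Before centring 2 of the 8 were lower and 1 higher. C105 was the highest of the 8 against each control at each dose, at 0.41 and 0.42 against no addition. C105 lay at percentiles 98.2 and 97.5 of all tested nucleotides there, and at 87.5 and 89.5 against DMSO. The DMSO library itself was at 0.29 against no addition at C105, more than the AglA libraries were above DMSO. Against no addition, C105 was also the highest of the 8 with DMSO and in each CHX library. With CHX it was at 0.33, 0.09 and 0.15 from low to high dose.

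With CHX the rates at all 8 nucleotides were below both control libraries at every dose before centring. So were 73.5% of the 514 tested nucleotides, since the library medians were lower: by 0.32, 0.12 and 0.20 on the log2 scale against DMSO at 10, 50 and 1000 µM. After centring, 1 of the 8 (C40) was lower than both controls at every dose and 1 (A92) was higher, where 8.56% and 22.6% of all tested nucleotides were. At A42 the log2 ratio to no addition was -0.39, -0.17 and -0.31 before centring and -0.01, 0.02 and -0.05 after it.

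Relative to their library medians, the 8 nucleotides differed from DMSO by at most 0.25 with CHX. At 10 µM the ratios were between -0.21 (A42) and 0.21 (A92), with a median of -0.04. At 50 µM they were between -0.21 (C105) and 0.07 (A92), with a median of -0.15, and at 1000 µM between -0.25 (A42) and 0.05 (A92), with a median of -0.12. The medians over all 514 were 0.0055, -0.020 and -0.0026. A42 was at -0.21, -0.18 and -0.25, with no order by dose.

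After centring, the CHX libraries were closer to no addition than to DMSO at 4, 6 and 5 of the 8 nucleotides, from low to high dose, and at 60.5%, 65.6% and 62.8% of all tested nucleotides. The AglA libraries were closer to no addition at 4 and 2 of the 8, and at 29.96% and 32.3% of all tested ones. The medians against no addition were 0.07, 0.0020 and -0.04 at 10, 50 and 1000 µM. The widest ratio was 0.33, at C105 with 10 µM. At 50 µM all 8 lay between -0.07 and 0.09, with a standard deviation of 0.06. Over all 514 tested nucleotides the standard deviation was 0.25, with 95% of the ratios between -0.19 and 0.29 and the lowest at -5.11.

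The 2 libraries without drug also differed from each other, over a range close to that of the CHX libraries against DMSO. The ratio of DMSO to no addition at the 8 nucleotides was between -0.07 (A103) and 0.29 (C105), with a median of 0.15, against 0.05 over all tested nucleotides. By the 2-fold bound 0 of the 8 differed, with 0.389% of the 514 called. A42 had 14.2% with DMSO against 12.9% with no addition, a centred ratio of 0.20. After centring A92 was at 0.01 and A103 was the 1 nucleotide lower with DMSO. Before centring C40 and A92 were lower too, at -0.03 and -0.05.

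At a few nucleotides of 5S the DMSO and AglA libraries all lay on one side of the no-addition and CHX libraries. This pattern was looked for after the values were seen, and it concerns only the order of the libraries. At 6 of the 60 adenosines and cytidines (10%) the DMSO and both AglA libraries were all higher than the other 4 DMS libraries, and at 1 (C44) they were all lower. Over all rRNAs these shares were 10.6% and 2.89%, so the share in 5S was near the background. The 6 were C15, A42, A66, A72, A104 and C105. At A42 and A104 the rate with no addition was nearer to an AglA library than to any CHX library. At C15, A66, A72 and C105 it was nearer to a CHX library. A66 of helix II is closed, yet it had 0.122% and 0.113% with AglA and 0.0772%, 0.0680% and 0.0777% with CHX, against 0.130% with DMSO and 0.0857% with no addition, and 0.0406% without DMS. These are uncentred rates, and the lower overall level of the CHX libraries moves with them. The part of that level in the pattern was not tested.

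At the same molar dose of the drugs, the rate of A42 with AglA (1.0 mM) was 13.8% and with CHX (1000 µM) 10.4%. C73 had 7.23% and 5.63%, A104 had 1.89% and 1.47%, and A92 had 0.840% and 0.837%. Before centring the log2 difference of AglA minus CHX was above 0 at all 8 nucleotides and at 79.2% of the 514, and the median rate over the 514 was itself higher with AglA (1.60%) than with CHX (1.44%). After centring it was above 0 at 7 of the 8, from 0.01 at A103 to 0.27 at C105, and at -0.14 at A92. Of all tested nucleotides 51.6% were above 0 after centring.

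The closed adenosines and cytidines of 5S were chosen by a mean rate below 0.2% over the DMS libraries. A low level in those libraries thus follows largely from the choice, and the values only describe the class in each library. The median of the 47 was 0.0799% and 0.0849% in the AglA libraries and 0.0772%, 0.0734% and 0.0802% in the CHX libraries, each from low to high dose, against 0.0733% with DMSO and 0.0776% with no addition. Without DMS it was 0.0413%. No closed nucleotide exceeded 0.229% in any of these libraries, the highest being C116 with no addition.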

How the data were processed

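The deposited values are mutation rates, given by the authors as a fraction per nucleotide and library and printed here as percentages. Per the labels' protocols, rRNA was fragmented with zinc chloride, size-selected, ligated to a linker and copied with the reverse transcriptase TGIRT-III, and full-length cDNA was circularised and amplified by PCR. Of software, cutadapt and Bowtie2 appear in the submitters' processing notes, with the build sacCer3 but no versions. How mismatches were filtered is not given in the sources used here. Precision at low rates is therefore unknown.

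Libraries were assigned to conditions by title. Ratios were computed as log2(rate + 0.001), centred per library on the median of the 514 nucleotides compared, on the whole table. The script that makes the calls was tested on simulated data, with large decreases placed at adenosines and cytidines of at least 2% mean rate. Decreases near the 2-fold bound or at lower rates were not checked. The nucleotides named are all those past the bound of 0.5% and those just below it. Any other nucleotide, such as G88, A66, A63, those highest without DMS or those of loops A and B, was named after its values were seen. The members and lists were chosen with earlier results of these data known. The fold was predicted with RNAfold 2.7.2 at 37 °C from the bases in the table. Python 3.11.15 with pandas 2.3.3, numpy 2.4.6 and matplotlib 3.10.9 did the rest. The alternatives were other constants, bounds and filters, subtraction of the rate without DMS, no centring, single control libraries, a 1.5-fold rule and leaving out each DMS library.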

Additional observations from a re-analysis of the deposited data

How the results depend on the processing

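No 5S nucleotide was called in any drug library under any alternative run. The runs used constants of 0.0001 and 0.01, subtraction of the rate without DMS, or no centring. Others used a filter at 2% (2 left in 5S, A42 and C73), no filter (60 nucleotides), either control alone or a 1.5-fold rule. With 0.1 percentage points added and before centring, a control rate below 0.1% cannot reach the 2-fold bound even by falling to 0. The median of the 60 lay under that level in both controls, at 0.0855% (DMSO) and 0.0889% (no addition). At 0.01 (1 percentage point) the same goes for control rates below 1%, as at C40, A64, A92, C105 and, for DMSO, A103. Counts of 0 in the no-filter and 0.01 runs thus say nothing about decreases at such nucleotides. The count of 8 open nucleotides stayed at 8 whichever DMS library was left out of the mean, 7 after subtraction of the rate without DMS (C105 lost), 13 at a bound of 0.2% and 2 at 2%. The count of 13 higher with DMS was 20 with a constant of 0.0001 and 3 with 0.01, and 14 and 13 with the no-addition or the DMSO library alone. At a bound of 0.2% without DMS, 3 nucleotides were found in place of 0. Medians over the tested 5S nucleotides moved by more than 0.19, the standard deviation of the DMSO to no-addition log2 ratio over all 514, in 4 cases, all without centring: to -0.36 and -0.30 with 10 µM CHX against DMSO and no addition, and to -0.32 and -0.30 with 1000 µM. Unknown depth limits what the closed nucleotides can show. No paired analysis was possible because each condition has 1 library.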
